A study of Mus musculus with 33 samples.

Results

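Endothelial cells, which line blood and lymph vessels, were taken from single-cell RNA libraries of mouse bone, brain, liver and lung. A kept cell had 500 or more unique molecular identifiers (UMIs, each counting 1 captured transcript), 200 or more genes, and no more than 15% of its UMIs from mitochondrial genes. It was chosen by its counts of 5 genes, as endothelial when at least 3 of them had a UMI: Pecam1 and Cdh5, adhesion molecules of the endothelial junction, Kdr, the main receptor for VEGF, Cldn5, a tight junction claudin, and Egfl7, a secreted endothelial protein. The rule found 719 of 55366 kept cells, from 57065 barcodes in 32 samples. Most were not in lung: liver held 387 (53.8%), lung 218 (30.3%), brain 98 (13.6%) and bone 16 (2.23%). These 5 genes chose the cells, so their levels are given only as a description.

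All 32 samples came from mice given an intracardiac injection. In the series' niche-labelling method (SAMENT) the mice received a labelling substrate overnight, each tissue was dissociated with collagenase A, and cells were sorted as biotin positive or biotin negative. The 8 groups were the 4 tissues in both sorts, each with replicates 1 to 4, multiplexed by CellPlex and read by 3' sequencing. Strain, age, sex and injected cell line were not given in the sources used here, nor whether replicates were separate mice, so p-values measure only the spread between these samples.

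Vessels differ between organs. Brain endothelium forms the blood-brain barrier, with tight junctions and transporters that carry glucose, amino acids and lipids across it. Liver sinusoids are lined by fenestrated cells that clear waste molecules with scavenger receptors, and lung capillaries hold general capillary cells and thin aerocytes that serve gas exchange. Bone marrow sinusoids are the route by which blood cells leave the marrow.

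Samples held 94 to 3505 kept cells and 482617 to 44834700 UMIs in all. Their median depth was 2606 to 11313.5 UMIs a cell. Endothelial cells had a median of 3332 UMIs, and 12 samples held at least 10 of them: positive brain replicates 1 and 4, negative brain 2, positive liver 1 to 3, negative liver 1 to 4, and positive lung 1 and 2. Levels per sample below are CPM, the UMIs of a gene summed over a sample's endothelial cells and scaled to a common library total, in these 12 samples. Some samples weighed heavily on their group. Positive lung replicate 1 gave 87.8% of the positive lung endothelial cells, and positive brain replicate 1 gave 56.1% of those of positive brain. Same-numbered samples shared 0 barcodes over 112 pairs, differently numbered ones shared up to 7 per pair, and no barcode of an endothelial cell occurred in 2 samples.

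The endothelial label was checked against 20 further pan-endothelial genes that the rule did not use. At least 3 of them were detected in 693 of 719 cells (96.4%), which was 217 of 218 in lung, 94 of 98 in brain, 370 of 387 in liver and 12 of 16 in bone. All 566 cells with 4 or 5 rule genes met this check, against 127 of 153 (83.0%) with exactly 3. Just outside the threshold, it was met by 214 of 875 cells (24.5%) with exactly 2. That was 48 of 452 in liver (10.6%), 39 of 93 in brain (41.9%), 15 of 38 in lung (39.5%) and 112 of 292 in bone (38.4%). All 5 rule genes were detected in 62.0% of positive lung, 47.0% of positive brain, 37.6% of positive liver and 36.7% of negative liver endothelial cells.

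Markers of other cell types were counted in the same cells. Of the 719, 130 (18.1%) also had at least 3 genes of another class. These included 52 cells with the stem or progenitor list, 43 of them in positive lung, 30 with the neutrophil list, 29 with the macrophage list and 22 with the B cell list. Kit and Cd34, both progenitor list genes, are also used by lung capillaries. Hepatocyte and astrocyte or oligodendrocyte lists were met by 0 cells, the fibroblast list by 6 and the mural cell list by 5. The part of these cells in the results below was not tested, except where a value without them is given.

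Positive liver replicate 2 stood apart from the other liver samples. Its endothelial cells carried the macrophage list (Csf1r, Adgre1, C1qa and like genes) at 7906 CPM, against 0 to 132 CPM in the other 6 liver samples, and the 20 pan-endothelial genes at 4256 CPM, against 9851 to 13933 CPM. At the edge of the rule this sample had 323 cells with exactly 2 rule genes. Pecam1 was detected in 98.1% and Cdh5 in 99.4% of these, and 99.1% met the macrophage list. Among its cells inside the rule, the macrophage list was met by 93.3% of the 15 with exactly 3 rule genes, 20% of the 5 with 4 and 26.7% of the 15 with all 5. Positive liver replicates 1 and 3 had 27 and 35 cells with exactly 2 rule genes, of which 59.3% and 48.6% met the macrophage list, and 0% of their cells inside the rule did.

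**Figure D1:**
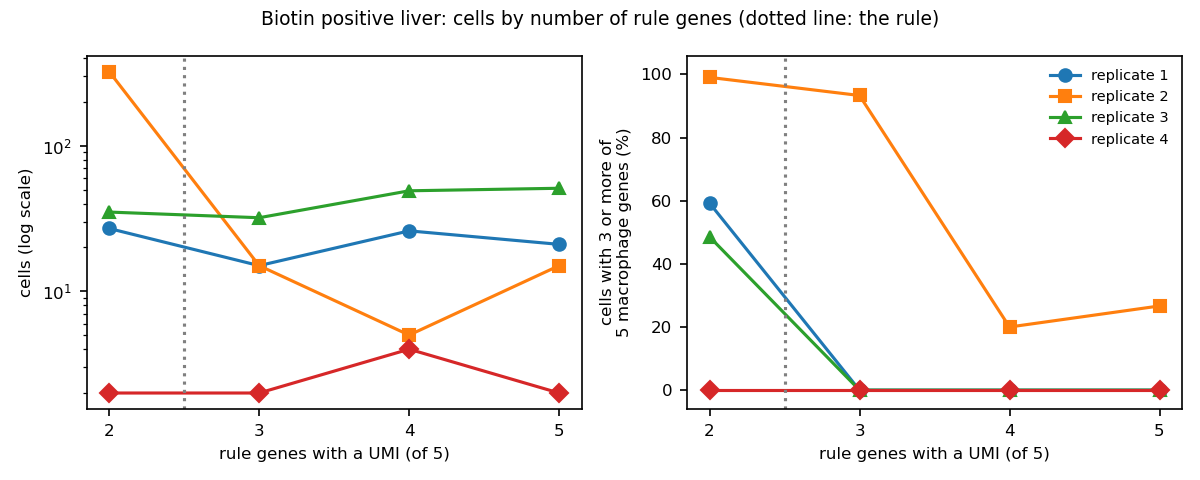
Number of cells (left) and percent of them meeting the macrophage list (right) by the number of rule genes detected, for positive liver replicates. Replicate 2 has 323 cells with exactly 2 rule genes, 99.1% of which meet the macrophage list, and it alone of the 4 replicates has such cells at 3 or more.

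In liver, the endothelial share of every biotin positive sample lay above that of every biotin negative sample. In positive liver samples the shares were 5.08%, 3.38%, 17.8% and 8.51% for replicates 1 to 4. In negative liver they were 0.416%, 3.25%, 1.61% and 2.37%. The groups did not overlap, although the closest pair of values was 3.38% and 3.25%. The means were 8.68% ± 6.42 (SD, n = 4) and 1.91% ± 1.20 (SD, n = 4). The difference was 6.77 percentage points, positive in 4 of 4 same-numbered pairs, with an exact two-sided permutation p of 0.0286, the smallest that 70 assignments allow. Adjusted over the 4 tissues, p was 0.114, so the difference did not pass at 0.05. With pairs kept together the exact sign-flip p was 0.125, the smallest that 4 pairs allow. With every cell thinned to 1000 UMIs, which left out 142 of 3094 positive and 270 of 8684 negative shallower cells, the difference was 3.85 points (exact permutation p = 0.114). Without positive replicate 2 it was 8.54 points and without positive replicate 3 it was 3.75 points (exact permutation p = 0.0286 each), and leaving out single negative samples gave 6.28 to 7.22 points (exact permutation p from 0.0857 to 0.114). Without cells that met another class list it was 5.97 points (exact permutation p = 0.114). The groups then overlapped: positive replicate 2 went from 35 to 14 endothelial cells (1.38%), below negative replicates 2, 3 and 4 (2.94%, 1.54% and 2.21%). They also overlapped at 4 of 5 rule genes, where positive replicate 2 was at 1.93% and negative replicates 2 and 4 at 2.49% and 1.97%, and when thinned, at 1.10% against 1.57%, 1.25% and 1.65% in negative replicates 2, 3 and 4.

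In lung, shares in positive samples were 5.86%, 0.801%, 0.247% and 0.442%, and in negative samples 0.145%, 0.278%, 0.0900% and 0%. The 0 in negative replicate 4 allows a share of up to 0.0974%. The groups overlapped at positive replicate 3, while all 4 same-numbered pairs were higher in the positive sample. The means were 1.84% ± 2.69 (SD, n = 4) and 0.128% ± 0.116 (SD, n = 4), and the exact permutation p was 0.0571 (adjusted 0.114). With same-numbered pairs kept together the exact sign-flip p was 0.125, the smallest that 4 pairs allow. The difference was 1.71 points, and 0.368 points without positive replicate 1 (exact permutation p = 0.0571). Without positive replicate 3 it was 2.24 points (exact permutation p = 0.0286). Leaving out 1 negative sample at a time gave 1.67 to 1.76 points (exact permutation p from 0.286 to 0.429). Other kept cells were deeper in the positive sort, at a median of 7335 UMIs against 3526, and after thinning to 1000 UMIs the difference was 1.28 points (exact permutation p = 0.0857).

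In brain, shares were 6.70%, 0.593%, 0.968% and 3.29% in positive and 0.342%, 1.03%, 0.546% and 0.140% in negative samples. The spread among positive samples was large: replicates 1 and 4 lay above every negative sample, and replicates 2 and 3 lay below the highest of them. The difference of the means, 2.89% ± 2.81 and 0.515% ± 0.382 (SD, n = 4 each), did not pass (exact permutation p = 0.114, adjusted 0.152). With pairs kept together the exact sign-flip p was 0.375. Leaving out single samples moved the difference between 1.10 and 3.14 points.

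Bone had few endothelial cells in either sort. Shares were 0.199%, 0.294%, 0.161% and 0% in positive and 0.101%, 0.0778%, 0.123% and 0% in negative samples. The zeros allow shares of up to 0.347% and 0.0856%. The mean difference of 0.0881 points had an exact permutation p of 0.286 (adjusted 0.286), and an exact sign-flip p of 0.25 over pairs. Without positive replicate 4 the difference was 0.143 points (exact permutation p = 0.0286). It shrank to 0.0317 points at 4 of 5 rule genes (exact permutation p = 0.714), 0.0188 without other classes except stem or progenitor (p = 0.971, exact permutation), 0.00464 without all other-class cells (p = 1.00, exact permutation) and 0.00975 when thinned to 1000 UMIs. In percentage points, the positive minus negative difference in liver was larger than the mean of the other tissues by 5.38 (exact permutation p = 0.0302 over 1820 assignments, adjusted 0.121), which did not pass after adjustment over 4 tissues. On log2 shares the same contrast was 0.12 (exact permutation p = 0.927), and the positive mean was 4.55 times the negative mean in liver, 5.61 times in brain and 14.3 times in lung. All samples were sorted on biotin, so a share is one of sorted cells and not of the tissue. Intervals and zero limits cover counting error only.

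**Figure D2:**
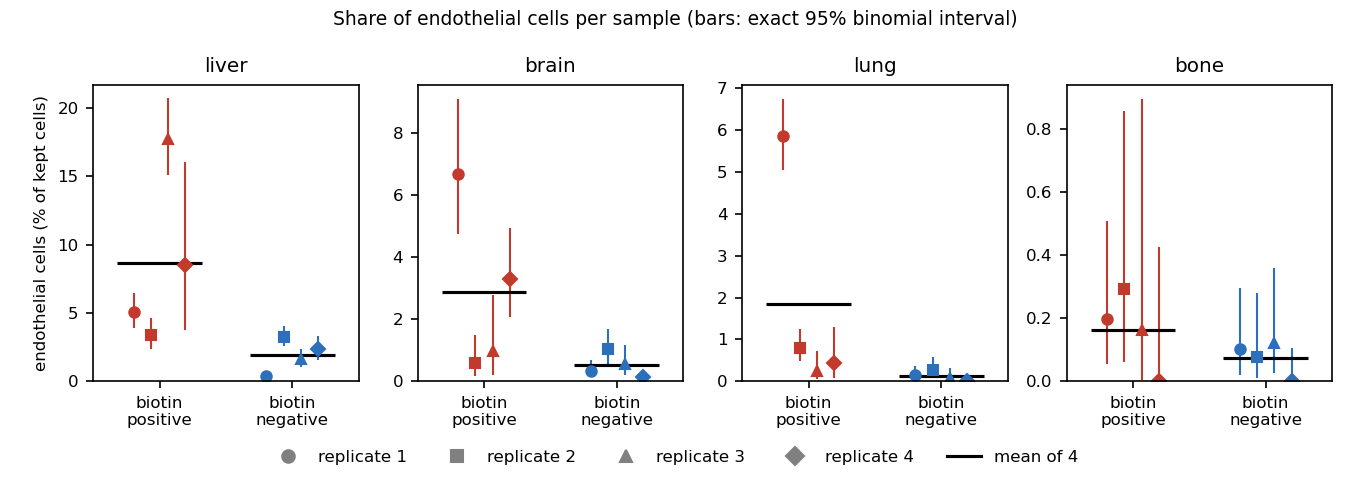
Endothelial cells as a percent of kept cells in each of the 32 samples, by tissue and sort, with exact 95% binomial intervals for counting error and a line at the group mean. Positive liver samples lie at 3.38% to 17.8% and negative ones at 0.416% to 3.25%, and positive lung replicate 1 (5.86%) lies far above the other lung samples.

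Beyond the 5 rule genes, genes were ranked among those detected in at least 20% of the endothelial cells of each of the 12 samples, so that every gene named here is shared across them by that filter. Leading the 941 candidates by the ratio to the other kept cells of the same samples, with 10 CPM added to both, were Ptprb, a phosphatase that restrains TIE2 and VE-cadherin signalling (ratio 185), the adhesion receptor Adgrf5 (116), Ramp2, the partner of the adrenomedullin receptor (92.7), and Epas1, the hypoxia-inducible factor HIF-2alpha (78.6). The next were Ctla2a, Esam, Flt1, Timp3, Eng and Adgrl4, and the basement membrane collagens Col4a1 and Col4a2 were among the first 25. Ptprb ranged from 612 CPM in positive liver replicate 2 to 4095 CPM in positive liver replicate 1, with 3.68 CPM on average in the other kept cells. These ratios describe the chosen cells and carry no test. Of the first 25, 24 stayed among the first 25 without cells that met another class list, and 18 did with 1 CPM added.

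Gene levels were then compared between tissues over the 12 samples (3 brain, 7 liver, 2 lung). Each gene was tested with edgeR's quasi-likelihood test on summed UMIs, with terms for tissue and sort, over 5382 genes, and called at a Benjamini-Hochberg adjusted p under 0.05. Both lung samples were biotin positive, so the sort term came from brain and liver samples and was assumed to hold for lung. Brain and liver endothelial cells differed in 808 genes (15%), 380 higher in brain (7.06%) and 428 higher in liver (7.95%). Lung and liver differed in 393 genes (7.3%), 211 higher in lung (3.92%) and 182 higher in liver (3.38%). Lung and brain differed in 268 genes (4.98%), 139 higher in lung (2.58%) and 129 higher in brain (2.4%). The groups' CPM did not overlap in 16.2% of genes between brain and liver, 17.4% between lung and liver and 29.3% between lung and brain, and both called and without overlap were 12.3%, 6.86% and 4.83%. Lung contrasts rested on 2 samples: without positive lung replicate 1, 92 genes were called against liver and 69 against brain. Leaving out either lung sample leaves 1 lung sample, which is then assumed to vary like the brain and liver samples, here and wherever a lung call is given without one of them. Without positive brain replicate 4 the brain and liver count was 523, and without positive liver replicate 2 the 3 counts were 927, 532 and 392. Both lung counts also moved with other single samples, to 246 against liver without positive lung replicate 2 and 120 against brain without positive brain replicate 4. With at least 20 cells per sample, which leaves 1 lung sample, 80 of the 232 named gene comparisons lost their call. The limit of 20 cells also left out negative brain replicate 2 (15 cells) and negative liver replicate 1 (14 cells), so the brain samples left were all positive. Each tissue was a sample of its own through dissociation and sorting, so tissue and tissue handling cannot be told apart.

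The promoters of 1 rule gene and of 1 gene from each organ's list are printed to show the DNA just upstream of a gene that chose the cells, Cldn5, and of 3 genes whose levels separated the organs. Each is the 250 bases before the start of the gene, 5' to 3' on the gene's strand, from RefSeq on GRCm38.p6: Cldn5 (ENSMUSG00000041378) at chr16:18776597-18776846 on the plus strand, and Slco1a4 (ENSMUSG00000030237) at chr6:141856221-141856470, Stab2 (ENSMUSG00000035459) at chr10:87007943-87008192 and Fibin (ENSMUSG00000074971) at chr2:110362994-110363243, all on the minus strand. Capitals mark AGGAAG or its reverse CTTCCT, the core bound by ETS factors such as Ets1.
Cldn5: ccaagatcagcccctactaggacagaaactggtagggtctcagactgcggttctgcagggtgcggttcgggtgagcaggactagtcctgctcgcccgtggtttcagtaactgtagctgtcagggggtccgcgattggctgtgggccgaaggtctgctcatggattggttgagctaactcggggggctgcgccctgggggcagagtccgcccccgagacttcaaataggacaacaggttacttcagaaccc
Slco1a4: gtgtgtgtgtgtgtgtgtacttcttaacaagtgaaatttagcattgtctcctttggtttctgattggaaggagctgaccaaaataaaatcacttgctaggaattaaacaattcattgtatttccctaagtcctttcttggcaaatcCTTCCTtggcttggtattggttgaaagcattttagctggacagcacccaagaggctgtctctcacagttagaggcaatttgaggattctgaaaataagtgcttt
Stab2: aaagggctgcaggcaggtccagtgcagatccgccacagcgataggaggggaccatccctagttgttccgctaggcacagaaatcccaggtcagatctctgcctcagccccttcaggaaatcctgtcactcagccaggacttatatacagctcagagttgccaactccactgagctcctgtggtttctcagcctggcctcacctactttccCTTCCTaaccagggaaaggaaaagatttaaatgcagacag
Fibin: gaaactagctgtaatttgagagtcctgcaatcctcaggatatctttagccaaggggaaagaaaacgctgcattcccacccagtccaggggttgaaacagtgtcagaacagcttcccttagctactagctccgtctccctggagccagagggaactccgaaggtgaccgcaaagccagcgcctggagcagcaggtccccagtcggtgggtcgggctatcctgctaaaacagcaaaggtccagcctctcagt
The 6 letters occurred once in Slco1a4 and once in Stab2 and not in the Cldn5 and Fibin windows, and 29.2% of all 27025 promoters of this length hold them on either strand. A GATA motif, AGATAA or its reverse TTATCT, was in none of the 4 and in 10.3% of all promoters. Of the 32 genes in the bed lists searched, 21 had an entry.

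Brain endothelial cells carried the blood-brain barrier list. All 8 of its genes were higher than in liver, against 7.06% of all genes, with a median log2 fold change of 8.74 against -0.10 over all genes. All 8 were also higher than in lung, against 2.4% of all genes, with a median of -7.45 for lung minus brain. Against lung, 6 of these calls held without positive lung replicate 1 and 7 without replicate 2. Slco1a4, an organic anion transporter of the barrier, was at 2606 and 1688 CPM in positive brain replicates 1 and 4 and at 3291 CPM in negative brain replicate 2. It was at 0 CPM in every liver and lung sample, so brain was at least 1070-fold higher than liver and at least 1012-fold higher than lung (against 3 UMIs over each tissue; edgeR adjusted p = 4.85e-06 and 0.000327; DESeq2 did not call the lung comparison, adjusted p = 0.262). A Slco1a4 UMI was found in 87.9% of positive and 78.1% of negative brain endothelial cells and in 0.0206% of B cells, which should lack it and had a median of 2470 UMIs.

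The carriers of glucose, thyroid hormone, lipid and drugs followed the same order. Slc2a1, the glucose transporter GLUT1, was at 3516, 2882 and 5518 CPM in the same brain samples, at 0, 9.22 and 38.2 CPM (lowest, median and highest) in liver, and at 7.76 and 16.6 CPM in lung. Its log2 fold change over liver was 7.81 ± 0.56 (SE; edgeR adjusted p = 5.19e-07). Each SE here and below is the absolute log2 fold change over the square root of the test's F statistic, so it is approximate. The share of liver endothelial cells with a Slc2a1 UMI, 3.80% and 6.00% in the positive and negative sort, was at or below the 6.06% in B cells, and no expression is read from it. Slco1c1, a thyroid hormone carrier, was at 612, 445 and 817 CPM in brain and 0 in liver and lung, at least 264-fold and 249.8-fold higher, a pair of calls lost with DESeq2 (adjusted p = 0.0612 and 0.500). Abcb1a, the drug efflux pump, was at 975, 818 and 1237 CPM in brain, 0 to 25.5 CPM in liver and 88.5 and 83.0 CPM in lung. Abcb1a was thus the member of the list with clear counts in lung too, and the lung and brain difference lost its call without either lung sample. Mfsd2a, which carries lysolipids with omega-3 fatty acids, was the least even member: 157 and 105 CPM in the positive brain samples, 0 in the negative one, and 1 UMI over all liver samples. Its call against liver (edgeR adjusted p = 0.00226) was lost with the replicate block (adjusted p = 0.0909) and with DESeq2.

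Single members of other lists were higher in brain than in liver (7.06% of all genes), and others were lower (7.95%). Of 8 tested junction genes 1 was higher and 0 lower. Of 6 VEGF genes 1 was higher and 2 lower (Flt4 and Nrp1). Of 8 haemostasis genes 3 were higher and 3 lower (F8, Tfpi and Pros1). Of 7 chemokine and cytokine genes 2 were higher and 1 lower. Ocln, the tight junction protein occludin, was at 195, 210 and 272 CPM in brain and 0 in every liver sample, with 27.2 and 33.2 CPM in lung, and brain was at least 99.4-fold above liver (edgeR adjusted p = 2.59e-05). Flt1, a VEGF receptor, was at 4350, 3333 and 4850 CPM in brain and between 560 and 1807 CPM in liver (2.06 ± 0.30 log2; edgeR adjusted p = 0.000199). Cxcl12, a chemokine that holds blood stem cells and lymphocytes, was at 1094, 718 and 619 CPM in brain, 0 to 41.5 CPM in liver and 262 and 382 CPM in lung. Brain and liver did not overlap for these 3 genes. Plat, the tissue plasminogen activator that dissolves clots, was at 688, 576 and 1039 CPM in brain against 3 UMIs over all liver samples, a ratio of 319 with a counting interval of 108 to 1556. In lung it differed between the samples, at 73.0 and 664 CPM. Id1, a target of BMP signalling, was at 1940, 1808 and 1163 CPM in brain and at most 242 CPM in liver (3.09 ± 0.32 log2; edgeR adjusted p = 1.08e-05), with 599 and 730 CPM in lung. Cxcl12, Plat and Id1 were also called higher in lung than in liver, Id1 not without either lung sample, and did not pass between lung and brain (edgeR adjusted p = 0.256, 0.612 and 0.0710). The 12 genes with the widest non-overlapping differences over liver were Slco1a4, Ccdc141, Slco1c1, Apod, Itih5, Paqr5, Ptn, Itm2a, Spock2, Srarp, Wnt5a and Fam13c. All 12 kept their calls without any single sample of brain or lung and without positive liver replicate 2, and with DESeq2 Slco1c1, Ptn and Srarp lost theirs.

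B2m, the light chain of MHC class I, was lower in brain. It was at 851, 760 and 544 CPM in brain, 1591 to 2620 CPM in liver and 1983 and 3219 CPM in lung, with a log2 difference from liver of -1.61 ± 0.30 (edgeR adjusted p = 0.00171). It was the 1 of 9 tested antigen presentation genes called between brain and liver, near the share over all genes (15%). Without positive lung replicate 2 the lung and brain call for B2m was lost.

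Liver endothelial cells carried the sinusoidal list. Of its 8 genes 7 were tested, and all 7 were higher in liver than in brain (7.95% of all genes, list median -5.99 for brain minus liver) and than in lung (3.38% of all genes, list median -6.07 for lung minus liver). Stab2, the scavenger receptor for hyaluronan, ranged over liver samples from 296 to 945 CPM with a median of 688 CPM. Its 1 UMI in brain was in positive replicate 1 (5.42 CPM), and lung had 3.88 and 0 CPM. Liver was 291-fold above brain (counting interval 52.2 to 11519; edgeR adjusted p = 3.59e-06), and the log2 fold change of lung against liver was -7.40 ± 0.76 (edgeR adjusted p = 7.59e-05). Clec4g, a sinusoidal lectin, ranged from 651 to 2169 CPM with a median of 1513 CPM in liver, and was at 16.3, 0 and 0 CPM in brain and 21.7 and 0 CPM in lung. Oit3 was at 197 to 807 CPM in liver and at 0 in all 3 brain samples, so liver was at least 77.2-fold higher. Stab2 UMIs were found in 74.7% and 80.0% of positive and negative liver endothelial cells, and in 0.391% of B cells.

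Stab2, Oit3, Clec4g, Dnase1l3, Fcgr2b and Gpr182 were detected in every liver sample and were lowest in positive replicate 2, the sample with the macrophage list at 7906 CPM. Dnase1l3, a secreted nuclease, was at 246 CPM there and at 637 to 1162 CPM in the other 6 liver samples. Fcgr2b, the inhibitory Fc receptor that clears immune complexes, was at 665 CPM there and at 1360 to 2638 CPM in the others. Stab2 was at 296 CPM against at least 664 CPM, and Oit3 at 197 CPM against at least 548 CPM. The part of the macrophage genes in these levels was not tested. In positive liver replicate 2, 26 of 35 cells (74.3%) had at least 3 genes of the list, against 59 of 62 and 128 of 132 in positive replicates 1 and 3. Gpr182, a chemokine-scavenging receptor, was at 398 to 2150 CPM in liver, 27.1, 26.2 and 99.0 CPM in brain and 133 and 382 CPM in lung. Its call against lung (edgeR adjusted p = 0.0429) was the weakest of the list, lost without either lung sample, without 5 of the 7 liver samples in turn, and with the replicate block (adjusted p = 0.102).

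Transcription factors and secreted signals of the liver sinusoid were described next, of which Maf is a member of the sinusoidal list. Gata4, a factor that sets sinusoidal identity, ranged from 15.4 to 470 CPM in liver, was at 0 in brain and had 1 UMI in lung, and liver was at least 23.6-fold above brain (edgeR adjusted p = 0.00537). Maf was at 1729 to 3994 CPM in liver, 179, 5.24 and 49.5 CPM in brain and 45.8 and 16.6 CPM in lung. Rspo3 and Wnt2, signals that pattern the liver lobule, ranged from 59.8 to 816 CPM and from 52.8 to 386 CPM in liver and were at 0 in brain, so liver was at least 53.7-fold and 23.4-fold higher. Bmp2 was at 560 to 2476 CPM in liver against 12.4 and 0 CPM in lung (-6.68 ± 1.01 log2; edgeR adjusted p = 0.000791). F8, coagulation factor VIII, which sinusoidal cells make, was at 84.5 to 1305 CPM in liver, 10.8, 0 and 0 CPM in brain and 12.4 and 0 CPM in lung. Liver samples spread widely in these genes without overlapping brain. Without positive lung replicate 1 the liver and lung calls of Gata4, Rspo3 and F8 were lost (edgeR adjusted p from 0.11 to 0.41), while those of Stab2, Clec4g, Oit3, Maf and Bmp2 were kept.

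Lung endothelial cells carried Hpgd, the enzyme that breaks down prostaglandins, at 4231 and 4330 CPM in positive replicates 1 and 2. It was at 166 to 933 CPM in liver and at 16.3, 0 and 0 CPM in brain. Lung exceeded both without overlap. The log2 fold change over liver was 2.80 ± 0.61 (edgeR adjusted p = 0.00900; 0.114 without positive lung replicate 1), and lung was 587-fold above brain (counting interval 201 to 2847; edgeR adjusted p = 5.33e-05). Foxf1, a transcription factor of lung vessels, was at 376 and 780 CPM in lung, 54.2, 36.7 and 99.0 CPM in brain and at most 4.61 CPM in liver, where it had 1 UMI. Its log2 fold change over brain was 3.38 ± 0.53 (edgeR adjusted p = 0.00169). Sema3c, a secreted semaphorin, separated liver from the other organs: it had 1 UMI in liver and was at 1140 and 863 CPM in lung and 639, 283 and 940 CPM in brain. Lung and brain overlapped in Sema3c and did not pass (0.97 ± 0.51 log2; edgeR adjusted p = 0.501). Of the general capillary list, 3 of 7 tested genes were higher in lung than liver (3.92% of all genes) and 5 of 7 higher in lung than brain (2.58% of all genes). Plvap and Cd93 lost the call over brain without positive lung replicate 2 (edgeR adjusted p = 0.125 for both) and without positive brain replicate 4 (edgeR adjusted p = 0.114 and 0.0745), which left 3 of 7.

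Aerocyte genes marked fewer of the lung cells. Fibin, an aerocyte gene, was at 360 and 149 CPM in lung and 0 in every liver sample, so lung was at least 167-fold higher (edgeR adjusted p = 0.000798). Car4, the carbonic anhydrase that speeds carbon dioxide exchange, was at 365 and 282 CPM in lung, 0 to 18.1 CPM in liver and 195, 78.6 and 74.2 CPM in brain, and its lung and brain difference did not pass (edgeR adjusted p = 0.306). Emp2 was at 605 and 315 CPM in lung against 3 UMIs over all liver samples, a ratio of 282 (counting interval 96.0 to 1368). It was at 173, 47.2 and 24.7 CPM in brain, where it was also called above liver (edgeR adjusted p = 0.000703), and lung and brain did not pass (edgeR adjusted p = 0.0973). At least 3 aerocyte genes were found in 55 of 180 cells (30.6%) of positive lung replicate 1 and in 2 of 19 of replicate 2, against 0 liver cells. These 3 were the aerocyte genes called over liver, of 7 tested (3.92% of all genes). Over brain, 2 of 7 were called (Fibin and Tbx2; 2.58% of all genes). Without positive brain replicate 1 both calls were lost, and Tbx2 lost its call also without positive brain replicate 4, without positive lung replicate 1 and with the replicate block. The 12 genes with the widest non-overlapping differences over liver were Nckap5, Sema3c, Scn7a, Tmem100, Foxf1, Fibin, Fendrr, Pde3a, Sox11, Adgrl3, Arhgef26 and Sema5a. All 12 kept their calls without positive lung replicate 2, and with DESeq2 Nckap5 and Scn7a lost theirs. Without replicate 1, 7 could still be tested and 5 of these were called; Fibin was among those that could not.

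**Figure D3:**
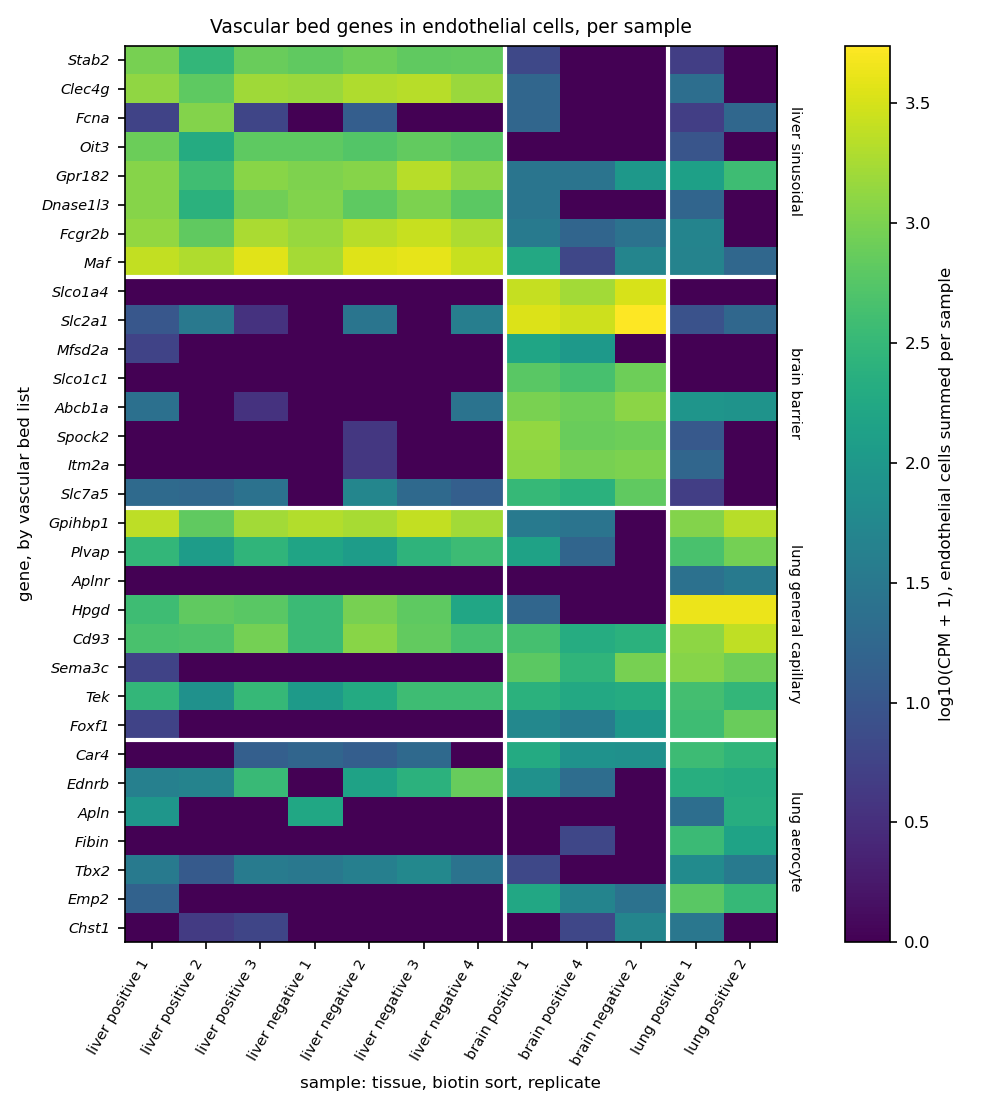
Heat map of log10(CPM + 1) for genes of the organ lists in the summed endothelial cells of the 12 samples with at least 10 such cells. Barrier genes such as Slco1a4 are high in the 3 brain samples, sinusoidal genes such as Stab2 in the 7 liver samples, and Hpgd and Foxf1 in the 2 lung samples.

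Among endothelial cells, the barrier and sinusoidal lists also separated brain and liver cell by cell, and the lung general capillary list did not separate lung. At least 3 brain barrier genes were found in 60 of 66 (90.9%) positive and 25 of 32 (78.1%) negative brain endothelial cells, in 0 of 387 liver cells and in 2 of 205 positive lung cells (0.976%). At least 3 sinusoidal genes were found in 221 of 237 (93.2%) positive and 144 of 150 (96.0%) negative liver cells, in 2 of 66 positive brain cells and in 7 of 205 (3.41%) positive lung cells. The list is not limited to endothelial cells. Other kept cells met it at 11.3% in positive and 1.02% in negative liver, 12.8% in positive brain and 2.51% in positive lung. The share of positive lung endothelial cells was thus close to that of the other lung cells. At least 3 general capillary genes were found in 96.6% of positive lung cells, and also in 65.4% of positive and 72.7% of negative liver cells and in 43.9% of positive and 18.8% of negative brain cells. Vessel type lists cut across the organs. At least 3 arterial genes were found in 103 of 205 (50.2%) positive lung cells, 18 of 66 (27.3%) positive and 2 of 32 (6.25%) negative brain cells, 9.28% of positive liver and 8.67% of negative liver cells. At least 3 venous genes were found in 38.4% of positive and 44.0% of negative liver cells, 21.2% of positive and 9.38% of negative brain and 19.5% of positive lung cells. Median depth was 4365 UMIs in positive lung, 2799 in positive and 3063 in negative liver, and 3667.5 in positive and 2787.5 in negative brain endothelial cells. The part of depth in these shares was not tested.

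**Figure D4:**
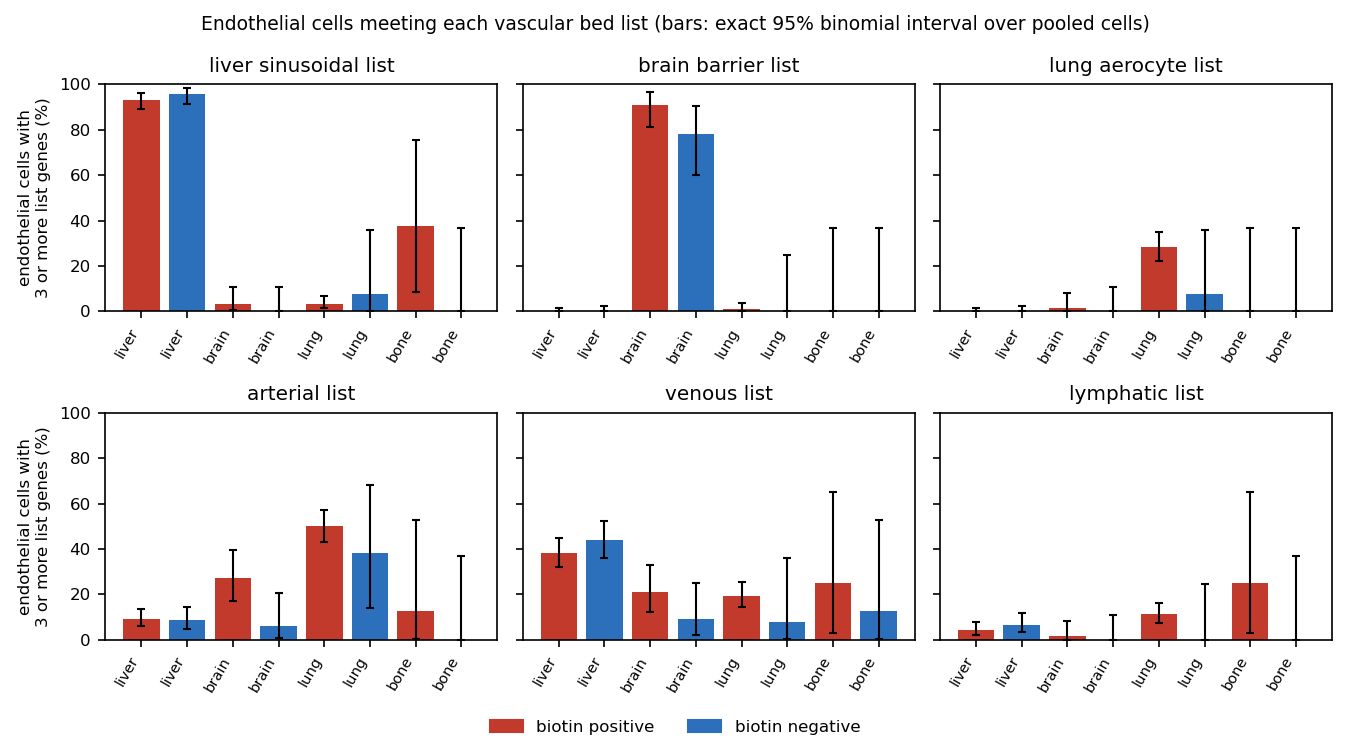
Percent of endothelial cells with at least 3 genes of each vessel list, by tissue and sort, with exact 95% binomial intervals over pooled cells that cover counting error only. The barrier list is met by 90.9% of positive brain, the sinusoidal list by 93.2% of positive liver and the aerocyte list by 28.3% of positive lung endothelial cells. A cell can meet several lists, so the lists assign no cell type.

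Genes of vascular tone were compared next, and lung was higher than liver in most. Of 10 tested, 6 were called above liver and 0 below (3.92% of all genes were higher in lung), with a list median of 2.13 against -0.12 over all genes. Cav1, the coat protein of caveolae, was at 1288 and 1294 CPM in lung and 3.52 to 83.0 CPM in liver (5.26 ± 0.67 log2; edgeR adjusted p = 0.000225). Ace, the angiotensin-converting enzyme, was at 1095 and 1195 CPM in lung and 7.51 to 96.8 CPM in liver (4.73 ± 0.65 log2; edgeR adjusted p = 0.000380). Calcrl, the receptor that pairs with Ramp2 to sense adrenomedullin, was at 2121 and 2173 CPM in lung, 289 to 632 CPM in liver and 179, 47.2 and 74.2 CPM in brain. Lung samples lay above all others for these 3 genes. The other members called were Cav2, Ramp2 and Cavin1. Against brain, 2 of 10 were higher in lung (Calcrl and Ace; 2.58% of all genes), and Ace lost that call without either lung sample and without positive brain replicate 1 or 4 (edgeR adjusted p from 0.0610 to 0.124). Brain was above liver in Cav1 and Cavin1 (7.06% of all genes) and below it in Calcrl, 1 of 10 (7.95% of all genes). Without positive lung replicate 1, 2 of the 6 calls remained (Cav1 and Ace), and without replicate 2, 3 did.

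Lipid handling genes were low in brain. Of 8 tested, 5 were higher in liver than in brain (7.95% of all genes) and 1 higher in brain (7.06% of all genes). Cd36, a fatty acid transporter, was at 5.42, 0 and 24.7 CPM in brain, 306 to 1410 CPM in liver and 1535 and 2157 CPM in lung. Gpihbp1, which holds lipoprotein lipase on the capillary wall, was at 32.5, 26.2 and 0 CPM in brain, 665 to 2494 CPM in liver and 1097 and 2190 CPM in lung, with log2 differences of -6.02 ± 0.59 from liver (edgeR adjusted p = 7.66e-06) and 5.91 ± 0.63 for lung minus brain (edgeR adjusted p = 7.34e-05). Both genes were low in every brain sample. Fabp4, a fatty acid binding protein, was at 1536 to 7285 CPM in liver and 5.42, 99.6 and 0 CPM in brain, and it differed between the lung samples, at 137 and 3020 CPM. The lung and brain call for Fabp4 (edgeR adjusted p = 0.0244) was lost without positive lung replicate 2 (edgeR adjusted p = 0.887) and with the replicate block (adjusted p = 0.0618). The other 2 members lower in brain were Fabp5 and Cd300lg, the latter not with the replicate block (adjusted p = 0.0749).

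Transcription factors and BMP genes were counted next. Of 16 endothelial transcription factors, 7 were higher in brain than liver (Foxf1, Mecom, Gata2, Epas1, Klf2, Klf4 and Sox17), against 7.06% of all genes. In 2 of 16 brain was lower (Nr2f2 and Ets1), close to the 7.95% of all genes. Lung was higher than liver in 3 (Foxf1, Gata2 and Epas1; 3.92% of all genes) and lower in 1 (Nr2f2), close to the 3.38% of all genes. Epas1 was at 3793 and 4363 CPM in lung, 2070, 1284 and 1757 CPM in brain and 172 to 586 CPM in liver. Lung and brain each lay above every liver sample, by 3.32 ± 0.39 and 2.09 ± 0.31 log2 (edgeR adjusted p = 0.000149 and 0.000283). Nr2f2, a factor of venous identity, was at 262 to 896 CPM in liver, 42.7 and 0 CPM in lung and 282, 120 and 99.0 CPM in brain. Brain and liver overlapped in Nr2f2, and that call (edgeR adjusted p = 0.0417) was lost without brain replicates in turn, save positive replicate 1, and without 5 of the 7 liver samples in turn (positive replicates 1 and 3 and negative replicates 2, 3 and 4). Klf2, Klf4 and Sox17, factors that respond to flow, lost their brain calls without positive brain replicate 4. With the replicate block, the brain calls of Klf4, Sox17 and Nr2f2 were lost (adjusted p = 0.0630, 0.0901 and 0.0953). Of 11 tested genes of the BMP and TGF-beta list, 2 were higher in brain than liver (Acvrl1 and Id1; 7.06% of all genes) and 2 lower (Bmp6 and Id2; 7.95% of all genes). Lung was higher than liver in 3 (Acvrl1, Id1 and Bmpr2; 3.92% of all genes) and lower in 1 (Tgfbr2; 3.38% of all genes), and without either lung sample only the Acvrl1 call of these 4 was kept. Against brain, lung was higher in Bmp6 (2.58% of all genes) and lower in Tgfbr2 (2.4% of all genes), the latter not without positive lung replicate 2. The brain and liver call of Id2 was lost without any 1 of the brain samples and with the replicate block. Acvrl1, the BMP9 receptor ALK1, was at 734 and 348 CPM in lung, 314, 283 and 223 CPM in brain and at most 61.8 CPM in liver. Of the other VEGF genes, Flt4, the lymphatic and sinusoidal receptor, was at 262 to 958 CPM in liver and at most 110 CPM in brain and lung. Vegfa, the ligand, was at 173 and 265 CPM in lung, at most 30.9 CPM in liver and 0, 5.24 and 0 CPM in brain.

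**Figure D5:**
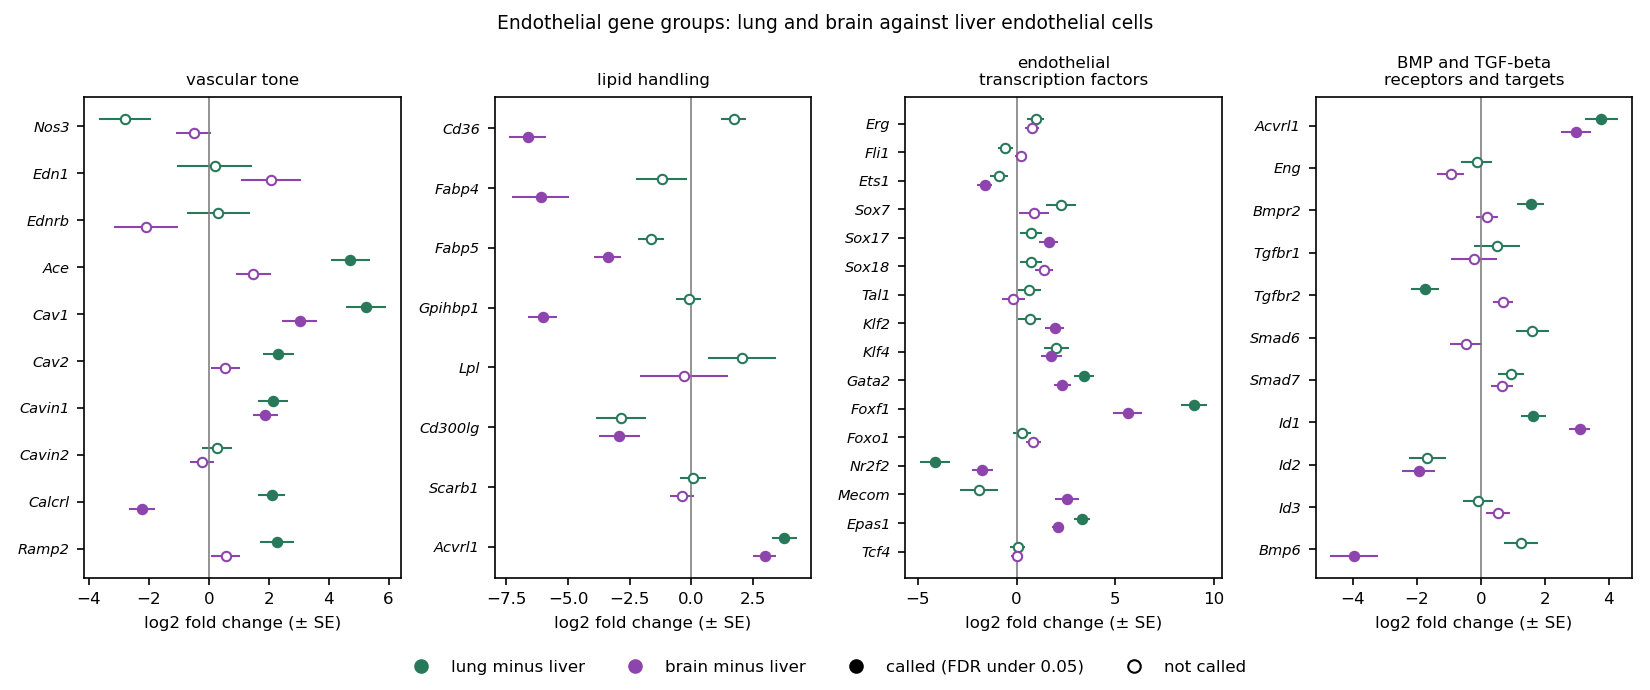
Log2 fold change for genes of vascular tone, lipid handling, endothelial transcription factors and BMP and TGF-beta signalling, lung minus liver and brain minus liver. Filled points had an adjusted p under 0.05. Bars are approximate standard errors, calculated back from the F statistic. Most vascular tone genes lie to the right for lung, with Nos3 to the left and not called, and Cd36 and Gpihbp1 lie to the left for brain.

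Immediate early genes, which respond within minutes to stress or dissociation, varied between samples. Their summed level was 4150, 18946 and 9229 CPM in the brain samples (positive 1, positive 4, negative 2), 15506 and 7068 CPM in lung, and 1314 to 5501 CPM in liver. Of 10 tested, 4 were higher in brain than liver (Ier2, Atf3, Fosb and Jund; 7.06% of all genes) and 3 higher in lung than liver (Atf3, Ier3 and Ier2; 3.92% of all genes). Atf3 was at 619 CPM in 1 brain sample, positive replicate 4, and at 1228 CPM in positive lung replicate 1. Without those samples its calls were lost (edgeR adjusted p = 0.891 and 0.762). Without positive lung replicate 1 the lung calls of Ier2 and Ier3 were lost as well (edgeR adjusted p = 0.385 and 0.283), which left 0 of the 3. Of the 4 brain calls, Ier2 alone was kept without positive brain replicate 4 and without negative brain replicate 2. With the replicate block the brain calls of Atf3, Fosb and Jund were lost (adjusted p from 0.0534 to 0.532). The part of these genes in the other tissue differences was not tested. In the 3 tissue comparisons 0 of 4 tested angiopoietin and TIE genes and 0 of 4 tested cell cycle genes were called (15%, 7.3% and 4.98% of all genes). No gene of the mural, fibroblast and T cell lists passed the filter on low counts, so none was tested.

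Within liver, endothelial cells of the positive sort (3 samples) and negative sort (4 samples) were compared gene by gene. By edgeR 0 of 4253 genes were called (0%), with 77 at an unadjusted p under 0.05, and by DESeq2 0 were called, with 38. The median approximate standard error, calculated back from the F statistic, was 0.43 log2. The gene with the smallest p was Me2, malic enzyme, at 1.84 ± 0.41 log2 (edgeR adjusted p = 1.00). Clec4g UMIs were found in 82.7% of positive and 88.0% of negative cells. With no filter on low counts 133 genes were called, 109 of them higher in the positive sort. Of these 133, 104 had their highest level in positive liver replicate 2 and 50 had at least 90% of their UMIs there, the sample with the macrophage list at 7906 CPM. In brain the sorts could be compared only with samples of at least 5 endothelial cells (5 samples, 1605 genes), and edgeR called 0 genes (0%), with 47 at an unadjusted p under 0.05. Lung and bone had too few negative cells for such a test.

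The 16 bone cells were the least certain. The 10 with exactly 3 rule genes carried the 20 pan-endothelial genes at 337 and 382 CPM, and the median UMI count was 37064 in the 5 positive and 7556 in the 5 negative ones. At least 3 of the 20 genes were detected in 6 of the 10. The 6 with 4 or 5 rule genes carried them at 7564 CPM in the positive and 10857 CPM in the negative sort. The 3 positive ones among them carried the macrophage genes at 2836 CPM, and 1 of the 3 met the macrophage list. The 5 positive cells with exactly 3 rule genes carried the platelet genes at 7672 CPM. Ptprc, the leukocyte gene CD45, was detected in 62.5% of bone cells in each sort. The endothelial label is thus uncertain for these 10, and no marrow vessel type was assigned.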

How the data were processed

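Single-cell RNA libraries of 32 intracardiac samples and 1 pooled bone matrix of an injection the labels name IIA were used. The deposited values are whole UMI counts for each gene in each barcode, which the authors made with Cell Ranger 6.1.2 (7.1.0 for the pooled matrix) per the file headers. The submitters' processing notes name Cell Ranger, Seurat and mm10 without roles, and whether intronic reads were counted was not given in the sources used here. Counts were used as deposited and depth per sample is in the report. Replicate numbers and groups came from the labels. No doublet caller was run; cells that also met another class list were counted and left out as an alternative.

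Shares were compared by two-sided exact permutation tests (scipy 1.17.1) with Benjamini-Hochberg adjustment over 4 tissues, with exact (Clopper-Pearson) 95% intervals. UMIs were summed per sample with at least 10 endothelial cells and tested with edgeR 4.0.16 (quasi-likelihood, TMM, filterByExpr, terms for tissue and sort), checked on simulated counts, with DESeq2 1.42.0 as an alternative. Ratios for genes with 1 to 3 UMIs on the lower side have exact counting intervals, and "at least" folds use 3 UMIs over the group at 0.

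Genes named were the 25 leading genes with 10 CPM added, detected in at least 20% of endothelial cells of each of the 12 samples; the 12 called, non-overlapping genes with the largest fold change per direction; and members of 40 fixed lists (283 genes, 1 absent; 1 further gene is not reported here). The cells, lists and tests were chosen with earlier results of these data known. A cell met a list with at least 3 of its genes.

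Same-numbered positive and negative samples shared deviations from their group means over 7581 genes with r from -0.217 to 0.772. All 4 pairs were over 0.1 in bone, brain and liver, and 1 of 4 in lung was not. The numbers were taken to pair samples in bone, brain and liver, from the data and not from the labels. For lung this was left undecided: same-numbered samples of every tissue, lung included, shared 0 barcodes over 112 pairs. Differently numbered samples shared 341 in all. Paired and unpaired p are therefore both given for the share difference of every tissue.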

Additional observations from a re-analysis of the deposited data

Results flagged for a closer look

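Over 35 groups of 4 samples tested for a single distant value, chance alone gives about 1 in 20. Positive liver replicate 2 had a median of 6562 UMIs per endothelial cell, far above the other positive liver samples, and it is the sample with the macrophage list at 7906 CPM. In positive lung replicate 1, endothelial cells made up 5.86% of kept cells, far above the other 3 samples. Among negative liver samples, Rspo3 in replicate 4 was at 802 CPM and Wnt2 in replicate 3 at 181 CPM, each far above the others, and Stab2 in replicate 2 was at 811 CPM, far from the other 3. Celf4 at 199 CPM and Cntfr at 145 CPM in negative liver replicate 3 were likewise distant.

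The positive minus negative share of endothelial cells was 5.38 percentage points larger in liver than the average over bone, brain and lung (exact permutation p = 0.0302, adjusted 0.121), and on log2 shares the contrast was 0.12 (exact permutation p = 0.927). In the pooled IIA bone matrix, which entered no comparison, 14 of 26186 kept barcodes met the endothelial rule (0.0535%, exact 95% interval 0.0292% to 0.0897%).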

How the results depend on the processing

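The liver share difference (6.77 points) kept its sign throughout but lost an exact permutation p under 0.05 at 4 of 5 rule genes (4.96), without cells of another class (5.97, or 6.21 with stem or progenitor cells kept, the latter added after seeing the data), thinned to 1000 UMIs (3.85) and with no mitochondrial limit (6.73). With the replicate block it was 6.77 (exact sign-flip p = 0.125). The exact sign-flip p was 0.125 in lung, 0.375 in brain and 0.25 in bone. The lung difference gained a p of 0.0286 at 4 of 5 rule genes (1.56) and without other classes (1.14, or 1.40), as bone did at 2 of 5 (2.19). Leaving out 1 sample gave 0.0447 to 0.143 in bone, 1.10 to 3.14 in brain, 3.75 to 8.54 in liver and 0.368 to 2.24 in lung. On log2 shares the tissue contrasts became 0.0512 for brain and 1.67 for lung, both reversed, and 0.12 for liver (exact permutation p = 0.927).

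Genes called between brain and liver were 509 with at least 20 cells per sample; between lung and liver 847 with no low-count filter and 201 with at least 20 cells; between lung and brain 513, 74, and 407 without other classes except stem or progenitor. Within liver, 133 were called with no low-count filter. Leaving out 1 sample gave 523 to 927, 92 to 532, 69 to 392 and 0 to 0. The replicate block gave 634, 346 and 227 and 0 within liver, and changed no call in the report beyond those given there. The log2 change of Itm2a, lung minus liver, was 3.58, and -1.01 to 5.03 when 1 sample was left out, the lowest without positive lung replicate 1; its call was also lost with the replicate block and without other-class cells. Of 232 named gene comparisons 108 kept their call in every setting. The causes were not tested. Of the 32 samples, 12 held the 10 endothelial cells needed for the expression tests, and none of these was from bone.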
